A study of Mus musculus with 4 samples.

Results

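The genes described here encode the machinery that brings proteins into the endoplasmic reticulum (ER), folds them there and removes those that fail to fold. They are 40 genes chosen by symbol, and all 40 were found by their GENCODE M21 symbols among the 37315 gene identifiers of the count tables. By role they comprise 11 chaperones and cochaperones, 9 isomerases and oxidases of disulfide and proline bonds, 7 genes of the translocon, 9 genes of ER-associated degradation (ERAD), and a set of 4 genes with the stress sensors and Xbp1. Liver RNA of C57BL/6 mice aged 23 weeks was sequenced as 2 wild-type (WT) libraries and 2 Fto knockout (KO) libraries. Fto encodes an RNA demethylase. The labels name no treatment, do not say how the Fto allele was made or in which cells it is lost, and do not say that each library is a separate animal. For that reason a p-value refers to variation among these 4 libraries, part or all of which could be technical.

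Secretory and membrane proteins enter the ER through the Sec61 channel, fold with the help of chaperones such as BiP (Hspa5) and of enzymes that form and rearrange disulfide bonds, and are retrieved to the cytosol for destruction when folding fails. Unfolded protein in the ER is sensed by IRE1 (Ern1), PERK (Eif2ak3) and ATF6, which together drive the unfolded protein response: IRE1 splices the Xbp1 messenger RNA, PERK slows translation, and ATF6 is cut to release a transcription factor. Hepatocytes secrete most plasma proteins, such as albumin, and rely heavily on this machinery.

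The 4 libraries held between 39549592 and 44689114 counts, and no pair of them agreed within sampling noise. Fto itself had 41.2 and 33.9 CPM (counts scaled to library size) in WT replicates 1 and 2 and 13.1 and 12.1 CPM in KO (log2 fold change -1.57, adjusted p = 0.0109, edgeR quasi-likelihood test), so the targeted gene followed the labels. The hepatocyte marker Alb was at 53495 to 70110 CPM over the libraries. CPM values are scaled by TMM, a factor that corrects for differences in library composition, and log2 fold changes are KO over WT. Libraries numbered 2 differed from those numbered 1 in a shared way in both genotypes (r = 0.43 across 13836 genes), so ratios within each number are given beside the pooled ones. Each number holds 1 library a genotype, which allows no test within it.

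The ER machinery stood higher in KO liver for most of its members, by amounts that seldom passed the test. All 40 genes passed the filter on low counts. Of them 2 were called higher in KO at an adjusted p under 0.05 (edgeR quasi-likelihood test), the ERAD gene Derl3 and the chaperone-like isomerase gene Creld2, and 0 were called lower. Among all 13836 genes tested 1.91% were called in either direction, 0.961% higher and 0.947% lower. A positive log2 fold change was seen in 33 of the 40 members, against 50.8% of all tested genes, and the median was 0.25 against 0.01 for all tested genes. In 22 members both KO libraries lay above both WT libraries, which was the case for 21.6% of all tested genes, and in 1 member, Hspa13, both lay below, against 20.4%. These counts take any gap, and with a gap of over 1%, a tolerance chosen after the values were seen, KO lay above WT in 20 members and in 20.6% of all tested genes, without Ero1l and Calr. An unadjusted p under 0.05 was reached by 12 members, all higher in KO, against 6.53% of all tested genes. Together the 40 genes drew 0.857% and 0.821% of all reads in WT replicates 1 and 2, and in KO their share was 1.02% and 0.966%.

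**Figure D1:**
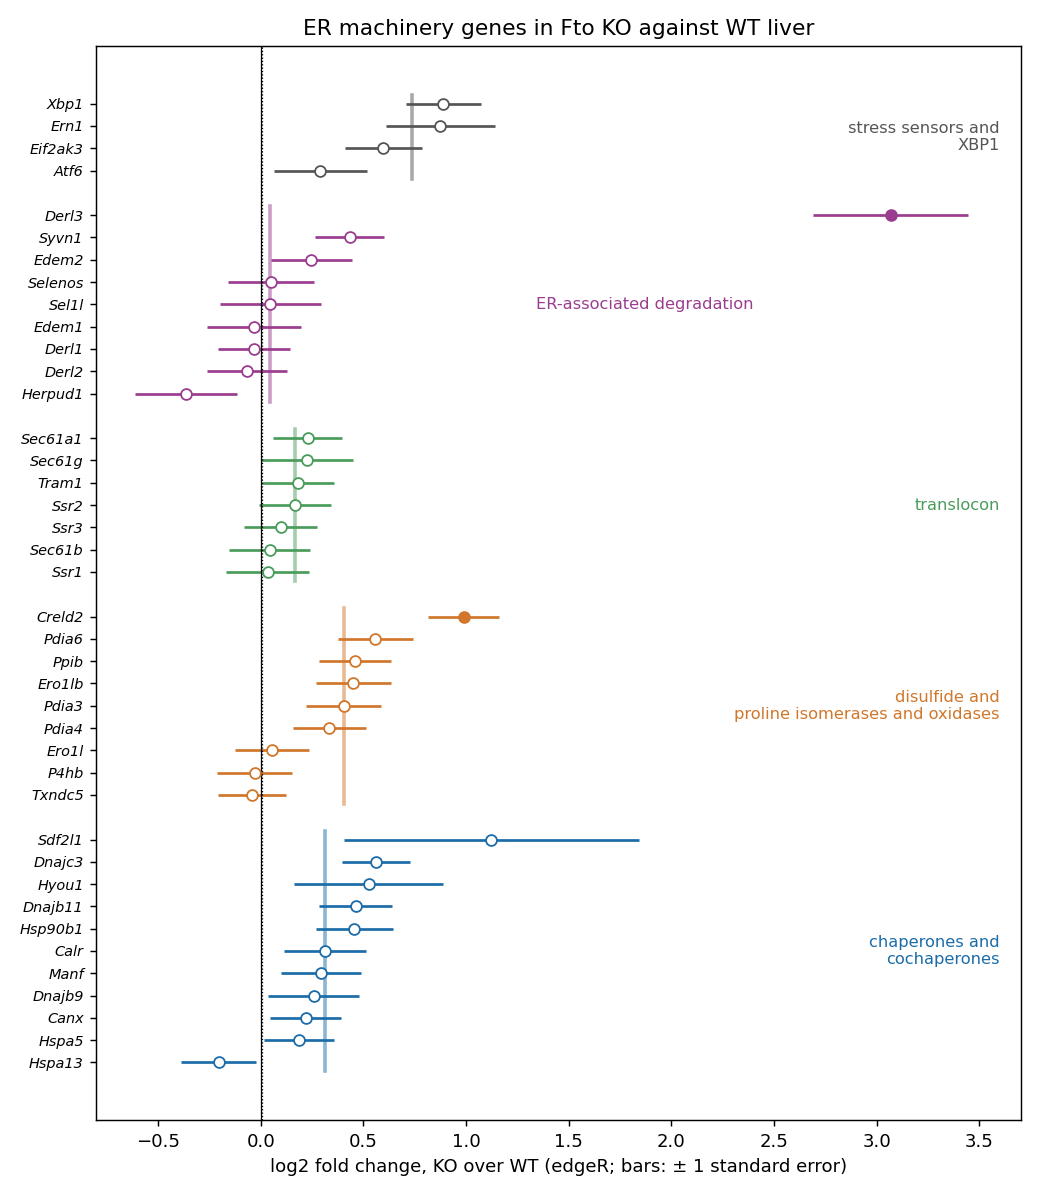
Log2 fold change of each of the 40 genes, KO over WT, on the horizontal axis, with bars of 1 standard error from edgeR, grouped by role. Filled points were called at an adjusted p under 0.05 over all genes, the vertical coloured lines are the medians of each role, and the dotted line is the median of all tested genes. Derl3 stands apart at 3.07, the 4 sensor and Xbp1 genes lie between 0.29 and 0.89, and the translocon genes lie between 0.03 and 0.23.

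The sensors and Xbp1 had a median log2 fold change of 0.74 (0.76 within number 1 and 0.64 within number 2). The isomerases and oxidases had 0.40 (0.35 and 0.45), and the chaperones 0.32 (0.38 and 0.35). The translocon genes had 0.17 (0.18 and 0.13) and the ERAD genes 0.05 (0.07 and 0.04). Members with an unadjusted p under 0.05 were 3 of 4 among the sensors and Xbp1, 4 of 9 among the isomerases and oxidases, 3 of 11 among the chaperones, 2 of 9 in ERAD and 0 of 7 in the translocon. These counts and medians describe the roles, and the difference between roles was not tested. The order below the sensors and Xbp1 turned with the libraries used. Without WT replicate 1 the chaperones (0.45) came above the isomerases and oxidases (0.37), and ERAD (0.18) above the translocon (0.082). Without KO replicate 2 the medians were 0.38 and 0.25 for the first pair and 0.18 and 0.12 for the second.

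Levels of different genes can be compared only per length, and are given here as mean CPM per kilobase of annotated exon over the 4 libraries. They ran from 2.54 for Eif2ak3 to 574 for P4hb, the isomerase that is also the beta subunit of prolyl 4-hydroxylase. After P4hb came the lectin chaperone gene Calr at 298 and Herpud1, an ERAD scaffold, at 239, and then Hsp90b1 at 206, Hspa5 at 188 and Pdia3 at 188. Derl3 was among the lowest, at 7.21, with Hspa13 (3.22), Ero1l (3.04) and Eif2ak3 below it. The called increases were thus not among the most abundant members: Creld2 ranked 13 and Derl3 ranked 37 of 40 on this scale.

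**Figure D2:**
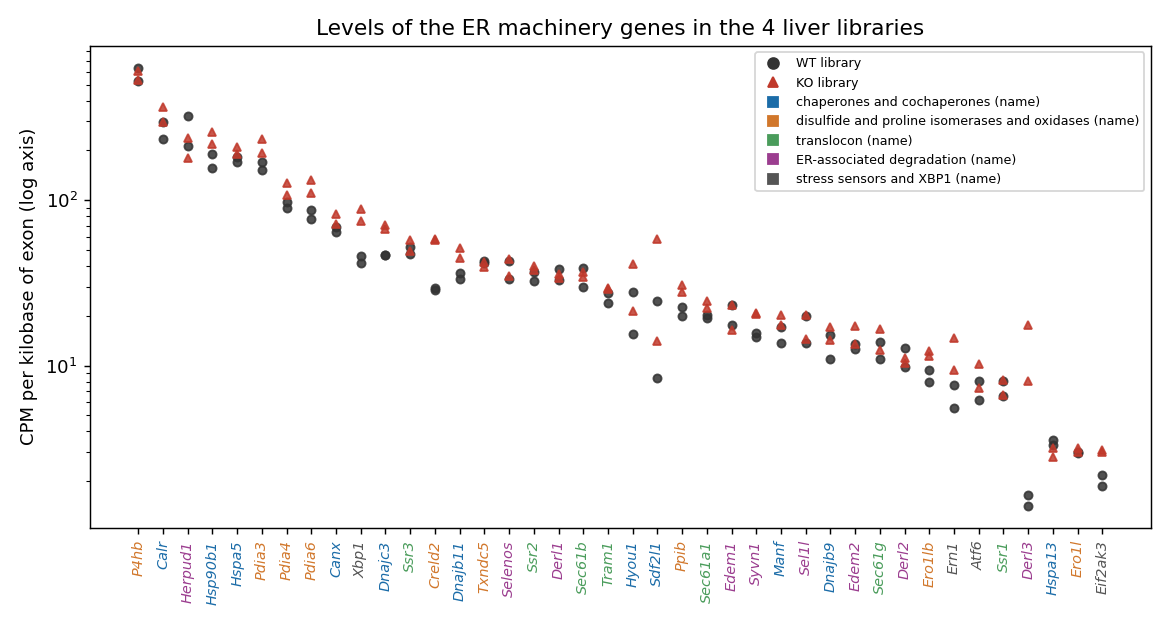
CPM per kilobase of annotated exon (log axis) for the 40 genes in order of their mean, with circles for the 2 WT libraries and triangles for the 2 KO libraries; the colour of a name gives its role. The levels span from 2.54 for Eif2ak3 to 574 for P4hb, and the KO triangles of Derl3 stand clear of its WT circles.

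Promoter sequences were available for 32 of the 40 genes (RefSeq, GRCm38.p6, 250 bases before to 50 bases after each transcription start), and 10 of them held the ER stress response element (ERSE), the site where ATF6 acts with NF-Y. The letters searched, on both strands, were CCAAT, then 9 bases of any kind, then CCACG. The element was present in 0.137% of the 27025 genes with a promoter in the table and in 0.119% of its 32851 promoters. The genes were chosen as ER machinery and the element for its link to ER stress, so these choices were not independent. Its higher share among the members describes the chosen set and is not separate evidence about it. Each element of the 10 genes is written from the CCAAT box, which NF-Y recognises, to the CCACG part. Both are in capitals and the 9 bases between them in lower case.
Hspa5 (chr2:34772025-34772043, plus strand): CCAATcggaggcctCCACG
Calr (chr8:84847075-84847093, plus strand): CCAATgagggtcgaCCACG
Derl3 (chr10:75893242-75893260, minus strand): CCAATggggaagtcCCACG
Hsp90b1, distal (chr10:86705638-86705656, minus strand): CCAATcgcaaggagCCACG
Hsp90b1, proximal (chr10:86705533-86705551, plus strand): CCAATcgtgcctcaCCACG
Canx (chr11:50325800-50325818, minus strand): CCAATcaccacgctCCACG
Pdia6 (chr12:17266491-17266509, plus strand): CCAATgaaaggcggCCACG
Ero1lb (chr13:12565682-12565700, minus strand): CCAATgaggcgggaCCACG
Dnajc3 (chr14:118937827-118937845, plus strand): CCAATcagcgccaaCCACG
Creld2 (chr15:88819520-88819538, minus strand): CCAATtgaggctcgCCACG
Syvn1 (chr19:6046532-6046550, plus strand): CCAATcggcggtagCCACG

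The 10 genes with an element had log2 fold changes from 0.19 to 3.07 with a median of 0.45, and 2 of them, Derl3 and Creld2, were called. The 22 genes with a promoter entry and no element had log2 fold changes from -0.36 to 1.12 with a median of 0.16, 17 of them positive and 0 called. The groups also differed in role. Those with an element were chaperones, isomerases and oxidases and the ERAD genes Derl3 and Syvn1, with no translocon or sensor gene and without Xbp1. Among those without an element were Sdf2l1 (1.12), Xbp1 (0.89), Ern1 (0.87) and Eif2ak3 (0.60). Element and role were not separated, and the difference between the groups was not tested. Only exact matches counted as an element, so genes with a near match fall in the group without one. Herpud1, at -0.36, is in that group, although its promoter, printed below, ends in CCAAT, 9 bases and CCAC. An unadjusted p under 0.05 was reached by 7 of the 10 and by 5 of the 22, against 13.0% of all tested genes in either direction. Outside the machinery, 27 genes of the promoter table held the element and 9 of these were tested, with a median of 0.02, 5 positive and 1 called, Xlr3a. A match is a description of the letters and does not show that a factor binds there.

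**Figure D3:**
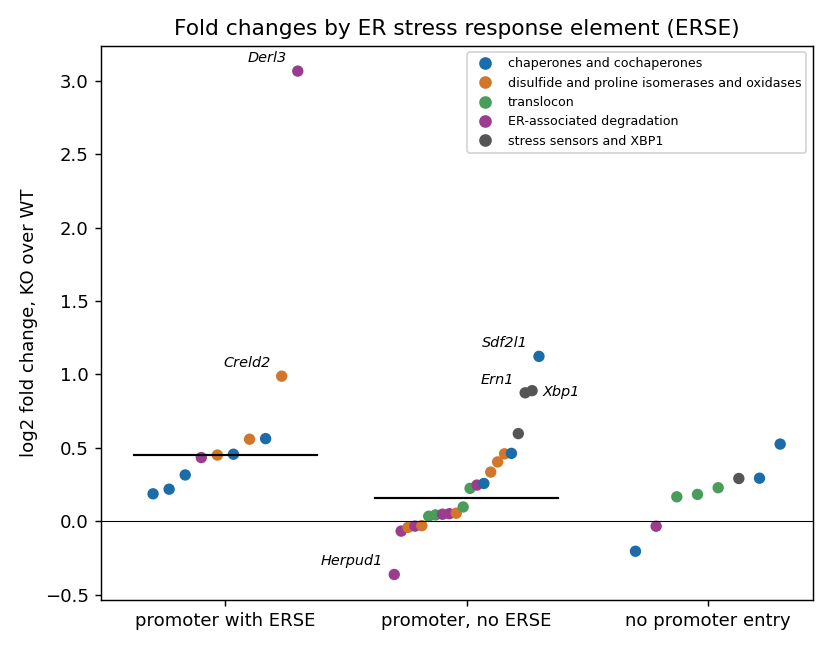
Log2 fold change, KO over WT, of the 10 genes whose promoter holds an ERSE, the 22 whose promoter entry holds none, and the 8 with no promoter entry; points are coloured by role and lines are medians. All 10 points on the left lie above 0, with a median of 0.45 against 0.16 in the middle group. The left group holds no translocon or sensor gene, so the groups also differ in role.

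Other elements of the response were rarer in these promoters. ERSE-II (ATTGG, then 1 base of any kind, then CCACG, on both strands), present in 0.0444% of genes with a promoter, was found in Herpud1 and Dnajb11. The UPRE (TGACGTGG, both strands), a site of XBP1 and ATF6 present in 0.714% of genes, was found in Txndc5 alone. The composite ATF4 letters TGATGCAA (both strands, 1.03% of genes) were found in Herpud1 alone. No member's promoter held both an ERSE and an ERSE-II. The promoters below are the 250 bases before the transcription start of the 2 called genes and of Herpud1, the member with the lowest log2 fold change, 5′ to 3′ along each gene, which all lie on the plus strand of GRCm38.p6. Capitals mark the fixed letters of an ERSE in Derl3 and Creld2, where it runs on the opposite strand, and of the ATF4 and ERSE-II letters, in that order, in Herpud1.
Derl3 (chr10:75893148-75893397): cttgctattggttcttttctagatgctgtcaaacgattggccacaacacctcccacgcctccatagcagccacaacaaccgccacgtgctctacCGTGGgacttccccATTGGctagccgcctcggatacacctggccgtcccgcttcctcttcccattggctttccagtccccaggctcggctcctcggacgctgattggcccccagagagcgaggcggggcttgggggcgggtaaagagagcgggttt
Creld2 (chr15:88819396-88819645): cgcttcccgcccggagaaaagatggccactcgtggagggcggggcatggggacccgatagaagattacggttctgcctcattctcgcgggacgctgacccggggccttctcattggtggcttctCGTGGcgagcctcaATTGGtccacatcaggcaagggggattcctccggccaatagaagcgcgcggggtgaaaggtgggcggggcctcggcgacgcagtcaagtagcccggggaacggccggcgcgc
Herpud1 (chr8:94386179-94386428): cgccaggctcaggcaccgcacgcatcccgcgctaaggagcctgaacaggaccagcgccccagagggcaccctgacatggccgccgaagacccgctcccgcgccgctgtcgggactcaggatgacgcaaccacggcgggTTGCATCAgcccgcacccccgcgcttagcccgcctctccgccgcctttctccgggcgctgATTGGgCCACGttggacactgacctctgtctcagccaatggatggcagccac

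The genes of the stress sensors and Xbp1 were all higher in KO, and none passed the test over all genes. Xbp1 (chr11:5520659-5525893, plus strand, GENCODE M21, mm10), the transcription factor whose messenger RNA is spliced by IRE1, was at 135 and 150 CPM in WT and at 242 and 287 CPM in KO. The groups did not overlap, and the fold was 1.79 within number 1 and 1.91 within number 2. Its log2 fold change of 0.89 (SE 0.182) had an adjusted p of 0.0593 (edgeR quasi-likelihood test), just outside the threshold, and 0.00353 with DESeq2. It was not called with limma-voom, nor by edgeR with DESeq2's size factors or with library size alone. Counts per gene do not separate spliced from unspliced Xbp1.

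Ern1, which encodes IRE1, was at 62.2 and 45.0 CPM in WT and at 120.3 and 76.4 CPM in KO. Replicate 2 was lower than replicate 1 in both genotypes, and the KO libraries still lay above the WT libraries (log2 fold change 0.87, SE 0.267, adjusted p = 0.195, edgeR; 0.0453 with DESeq2). Eif2ak3, which encodes PERK, was at 11.3 and 13.1 CPM in WT and 18.2 and 18.7 CPM in KO (0.60, SE 0.187, adjusted p = 0.21, edgeR). Its KO values were close together and above both WT values. Atf6 was at 74.5 and 57.5 CPM in WT and 94.0 and 67.6 CPM in KO, so its groups overlapped (0.29, SE 0.229, adjusted p = 0.687, edgeR).

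Among the isomerases and oxidases, Creld2 rose 1.98-fold in KO. It encodes an ER protein with disulfide isomerase activity that is induced by ER stress. The gene lies at chr15:88819646-88826683 on the plus strand (GENCODE M21, mm10). Creld2 was at 39.1 and 40.5 CPM in WT and at 78.5 and 79.3 CPM in KO (39.8 ± 0.978 against 78.9 ± 0.593, mean ± SD, n = 2 each). Its libraries were tight within each genotype and far apart between them, and the log2 fold change was 0.99 (SE 0.172, adjusted p = 0.0345, edgeR). The call was kept in 12 of 12 alternative settings, with log2 fold changes between 0.96 and 1.05.

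Pdia6, a disulfide isomerase that also binds IRE1, was at 290 and 327 CPM in WT and 412 and 497 CPM in KO (log2 fold change 0.56, SE 0.183, adjusted p = 0.233, edgeR). Ppib, the ER proline isomerase cyclophilin B, was at 65.9 and 74.6 CPM in WT and 92.3 and 100.9 CPM in KO (0.46, SE 0.177, adjusted p = 0.326, edgeR). Ero1lb, an oxidase that recharges the disulfide isomerases, was at 62.4 and 53.1 CPM in WT and 82.0 and 75.9 CPM in KO (0.45, SE 0.182, adjusted p = 0.349, edgeR). In each of these the KO libraries lay above the WT libraries, without a call. Pdia3, the partner of the lectin chaperones, and Pdia4 had 0.40 and 0.33, also with no overlap between the groups.

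The most abundant isomerase showed no such shift. P4hb was at 1513 and 1809 CPM in WT and at 1525 and 1728 CPM in KO, and its log2 fold change of -0.03 (SE 0.183, adjusted p = 0.978, edgeR) was smaller than its SE. The thioredoxin-like Txndc5 had -0.04 (SE 0.167), with all libraries between 176.7 and 191.6 CPM. Ero1l, the widely expressed paralog of Ero1lb, had 0.05 (SE 0.179), with libraries between 15.6 and 16.8 CPM.

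Among the chaperones, Dnajc3 had the smallest p. It encodes P58IPK, a cochaperone of BiP. Dnajc3 was at 239.6 and 238.7 CPM in WT and at 344 and 362 CPM in KO, a 1.48-fold difference (log2 fold change 0.56, SE 0.165, adjusted p = 0.177, edgeR). Dnajb11, another J-domain partner of BiP, was at 108 and 118 CPM in WT and 144 and 168 CPM in KO (0.46, SE 0.177, adjusted p = 0.321, edgeR). Hsp90b1, the ER member of the HSP90 family, was at 766 and 632 CPM in WT and 1038 and 879 CPM in KO (0.46, SE 0.188, adjusted p = 0.36, edgeR). The KO libraries of all 3 genes lay above the WT libraries, and none was called.

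Hspa5, the chaperone most often read as the gauge of ER stress, differed little. It was at 768 and 721 CPM in WT and at 892 and 803 CPM in KO, a 1.14-fold difference (log2 fold change 0.19, SE 0.169, adjusted p = 0.737, edgeR). The KO libraries lay above the WT libraries by less than the called genes of the whole table, whose smallest absolute log2 fold change was 0.91. The lectin chaperones stood similarly. Calr was at 856 and 676 CPM in WT and 1049 and 856 CPM in KO (0.32, SE 0.2, adjusted p = 0.594, edgeR), and Canx had 0.22 (SE 0.174). Hspa13, an ER-linked member of the HSP70 family, was the chaperone with a negative value, at 22.7 and 24.4 CPM in WT and 21.7 and 19.2 CPM in KO (-0.20, SE 0.182).

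Sdf2l1 and Hyou1 varied more with the replicate number than with genotype. Sdf2l1, a component of the BiP complex, was at 27.4 and 9.33 CPM in WT and at 64.3 and 15.7 CPM in KO. Replicate 2 was lower than replicate 1 in both genotypes (log2 -1.55 in WT and -2.04 in KO), while KO was higher than WT 2.35-fold within number 1 and 1.68-fold within number 2. The pooled log2 fold change of 1.12 had an SE of 0.72 (adjusted p = 0.607, edgeR). Hyou1, an HSP110-type chaperone that acts as exchange factor for BiP, was at 203 and 113 CPM in WT and at 299.5 and 154.8 CPM in KO, 1.48-fold within number 1 and 1.37-fold within number 2. Both genes overlapped between genotypes, and both were picked for description after their values were seen. Of the 40 members, 15 were lower and 19 higher in replicate 2 than in replicate 1 in both genotypes.

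**Figure D4:**
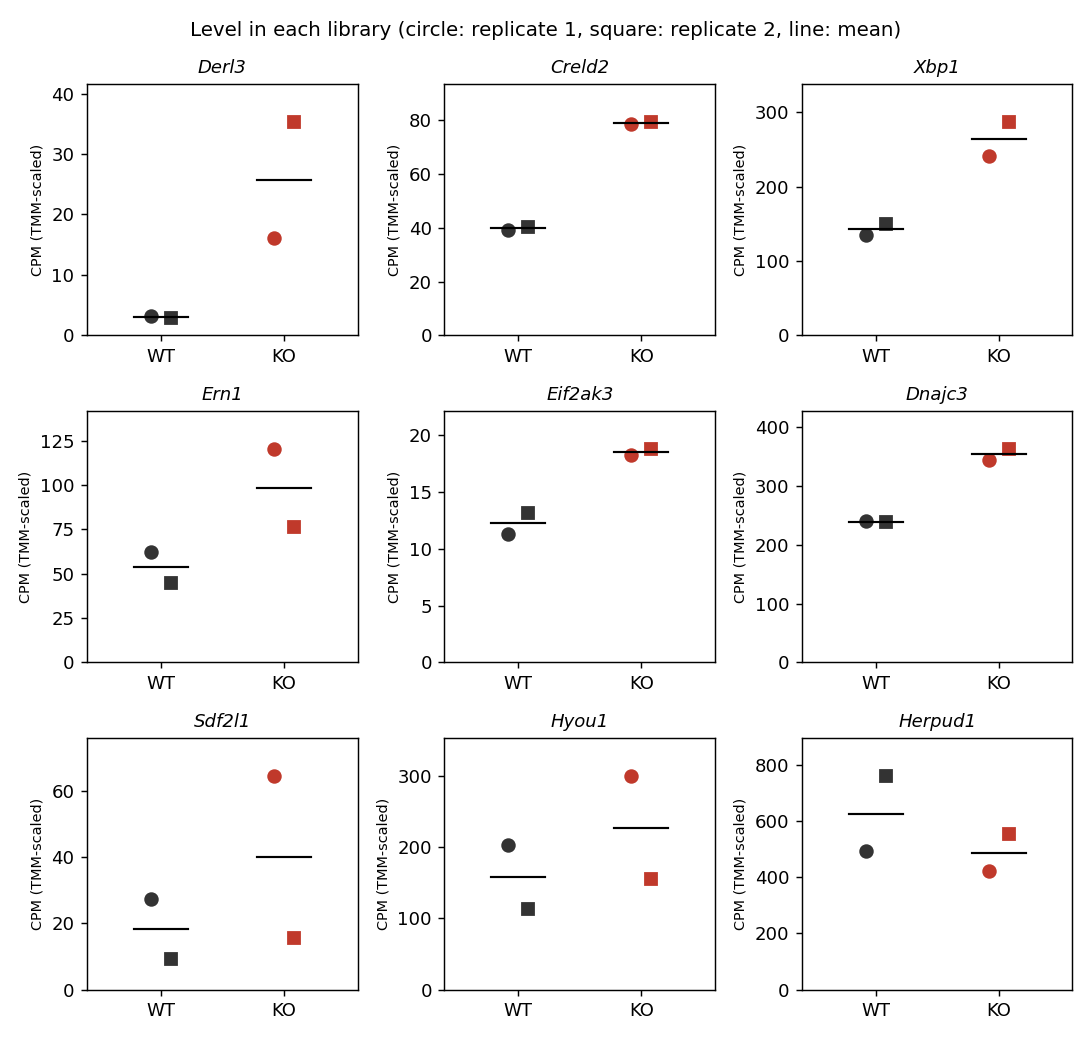
TMM-scaled CPM of 9 genes in each library, WT in grey and KO in red, with circles for replicate 1, squares for replicate 2 and lines for the means; each vertical axis starts at 0. Creld2 and Dnajc3 show tight libraries within a genotype. In KO Xbp1 spreads from 242 to 287 and Derl3 from 16.1 to 35.3, and Sdf2l1 and Hyou1 follow the replicate number.

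ERAD held the largest difference of the machinery in a group whose other members mostly stayed near 0. Derl3 encodes a derlin, a membrane protein of the channel through which misfolded proteins leave the ER. Its gene lies at chr10:75893413-75895941 on the plus strand (GENCODE M21, mm10). WT replicates 1 and 2 gave 139 and 108 reads for it, while KO gave 745 and 1412, or 3.28 and 2.84 CPM against 16.1 and 35.3 CPM. It rose 8.38-fold in the fit (log2 fold change 3.07, SE 0.377, adjusted p = 0.0108, edgeR), and the KO libraries differed from each other, with folds over WT of 4.92 within number 1 and 12.4 within number 2. Without KO replicate 2 the log2 fold change was 2.39. The call was kept in 10 of 12 alternative settings and lost in both fits that had the replicate number as a term. Its paralogs Derl1 and Derl2 had log2 fold changes of -0.03 (SE 0.176) and -0.07 (SE 0.194), at 109 to 127 CPM and 79.4 to 102.9 CPM over the libraries, with overlapping groups. In CPM per kilobase Derl3 rose from 1.64 and 1.42 in WT to 8.09 and 17.7 in KO, against means of 35.1 for Derl1 and 11.1 for Derl2, so that Derl3 passed Derl2 in KO replicate 2 only.

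Syvn1, the ubiquitin ligase HRD1, was at 72.3 and 76.5 CPM in WT and at 101.6 and 99.5 CPM in KO (log2 fold change 0.43, SE 0.169, adjusted p = 0.331, edgeR). Its groups did not overlap. Sel1l, the adaptor that holds HRD1 in its complex, had 0.05 (SE 0.245) and ranged from 117.7 to 173.0 CPM, lower in replicate 2 in both genotypes. The mannosidase-like genes Edem1 and Edem2, which mark glycoproteins for disposal, had -0.03 and 0.25, and Selenos had 0.05, each with overlapping groups. Herpud1 was at 494 and 759 CPM in WT and at 422 and 553 CPM in KO. Its log2 fold change of -0.36 (SE 0.248, adjusted p = 0.626, edgeR) was the lowest of the 40 genes, with the groups overlapping and with KO below WT within number 1 (0.853-fold) and number 2 (0.728-fold).

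The translocon genes lay closest together. Sec61a1, the channel-forming subunit, was at 131 and 137 CPM in WT and at 150 and 165 CPM in KO (log2 fold change 0.23, SE 0.169, adjusted p = 0.665, edgeR). The KO libraries lay above WT by a 1.17-fold difference. The small subunits Sec61b and Sec61g had 0.04 and 0.22, and Tram1, which helps nascent chains into the channel, had 0.18. The translocon-associated proteins Ssr1, Ssr2 and Ssr3 had 0.03, 0.17 and 0.10. All 7 were positive, 3 had both KO libraries above both WT libraries, and 0 were called. Summed over the 7 genes the level was 625 and 653 CPM in WT and 678 and 728 CPM in KO.

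**Figure D5:**
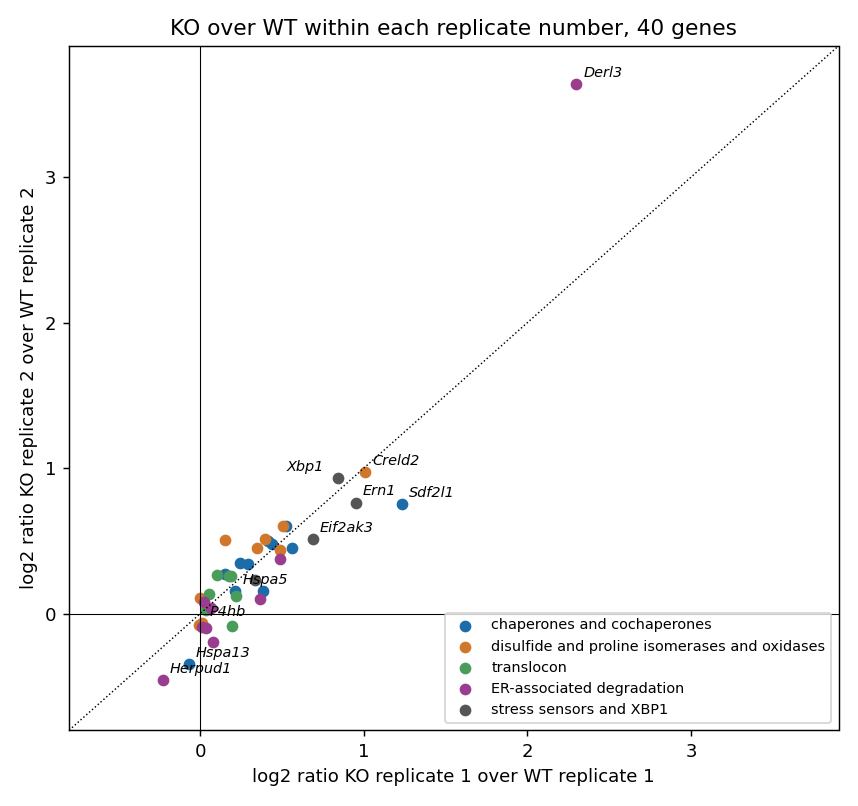
Log2 ratio of KO over WT within replicate number 2 (vertical) against that within number 1 (horizontal) for the 40 genes, coloured by role; the dotted line marks equal ratios. A total of 32 genes lie above 0 on both axes, 3 lie below 0 on both, and 5 have opposite signs; Derl3 lies far above the line.

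Within the numbers, 32 of the 40 members were higher in KO in both comparisons, against 36.0% of all tested genes. For ratios over 1% these were 31 and 34.5%, without Ero1l, whose libraries numbered 1 were level. Lower in both were 3 members (Hspa13, Herpud1 and Txndc5), and 5 had opposite signs. Txndc5 was also within 1% of level in number 1 (0.996-fold). For the counts of 3 and 5, the shares of all tested genes were not computed.

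Other genes of the pathway were examined as lists. Of 32 tested thiol and folding enzymes outside the 40 genes 1 was called higher and 0 lower, with a median log2 fold change of 0.01. It was Pdia5, a further disulfide isomerase, at 41.5 and 38.7 CPM in WT and 81.9 and 92.9 CPM in KO (1.12, SE 0.18, adjusted p = 0.025, edgeR). Of 16 tested genes of the PERK and ATF4 branch 1 was higher and 0 lower, the asparagine synthetase gene Asns (3.54, SE 0.282, adjusted p = 0.00165, edgeR), with a median of 0.15. No other gene of that branch was called. Atf4 had 0.06 and Ddit3, which encodes CHOP, 0.05, both within their SE, and Trib3 had -0.72 (adjusted p = 0.123, edgeR). Larger shifts without a call were those of Vldlr (-1.68, adjusted p = 0.0612, edgeR), Ddit4 (-1.24) and Chac1 (1.23).

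No gene of the remaining lists was called. The 30 tested genes of targeting, insertion and signal peptide cleavage had a median of 0.04, and the smallest p were those of Emc1 (-0.45) and Sec61a2 (0.59), at adjusted p of 0.327 and 0.366 with edgeR. The 19 genes of glycan transfer and trimming had 0.11, with Tusc3 at -0.72 and Mogs at 0.40. The 29 other ERAD genes had 0.05, with Edem3 at 0.46 and Erlin1 at 0.38. The 14 genes of the ATF6 family and its processing had 0.11, with Tmbim6 at -0.31 and Mbtps1 at 0.27.

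Markers of other cell types were read beside these values, since in bulk tissue a change in cell number and a change in RNA per cell cannot be told apart. All 11 Kupffer cell markers, genes of the resident macrophages of the liver, had positive log2 fold changes (median 0.93), with summed levels of 162 and 243 CPM in WT and 352 and 378 CPM in KO, and none was at 0. Of these 2 were called higher, Marco and Csf1r. Hepatocyte markers were positive in 7 of 8 genes, with a median of 0.29, close to that of the ER genes, and summed levels of 73464 and 84306 CPM in WT and 82885 and 95428 CPM in KO, which overlap. Adipocyte markers summed to less in KO, with no gene called, at 30.6 and 68.8 CPM in WT and 6.38 and 19.9 CPM in KO, with 4 of 5 tested genes negative. Most of these sums came from Cidec. Without it they were 3.44 and 10.5 CPM in WT and 0.584 and 6.42 CPM in KO, which overlap. Adipoq and Lep followed the replicate number, and their log2 fold changes of -0.08 and -0.27 lay inside their SE (1.69 and 1.65). In replicate 1 Adipoq had 1 read (WT) and 0 (KO), against 70 and 71 in replicate 2. Lep rose likewise, from 0 in both to 41 (WT) and 36 (KO). Plin1, the positive gene, was also higher in replicate 2 of both genotypes. The other negative genes were Cidec (-2.15, SE 0.465) and Cfd (-1.44, SE 0.733). Neutrophil markers summed to 0.590 and 0.893 CPM in WT and 1.58 and 1.25 CPM in KO, with Ly6g and Camp at 0. The part of these markers in the differences of the ER genes was not tested. The summed markers of T and NK cells, endothelial cells, stellate cells and cholangiocytes overlapped between the genotypes, and none of their genes was called. All 6 stellate markers were nonetheless negative, with a median of -0.31. Endothelial markers were 3 positive and 3 negative, the lowest being Lyve1 (-1.40, adjusted p = 0.0623, edgeR). Only 2 of the 8 T and NK cell markers had enough reads to be tested, 1 positive and 1 negative. Plasma cells and the exocrine pancreas are rich in ER machinery. The 12 plasma and B cell markers summed to 288 and 377 CPM in WT and 211 and 296 CPM in KO, mostly from Sdc1, which hepatocytes also express, and 3 of the 9 tested had a positive log2 fold change. Ighm was at 23.4 and 45.2 CPM in WT and 10.4 and 16.6 CPM in KO (-1.35, adjusted p = 0.124, edgeR). Igha was at 3.56 and 5.52 CPM in WT and 1.71 and 2.80 CPM in KO (-1.01, adjusted p = 0.251, edgeR). Both were lower in KO without overlap, and neither was called. For Jchain the WT reads numbered 47 and 78 and the KO reads 42 and 61, and Tnfrsf17 had at most 1 read in any library. Of the 10 acinar markers 6 were at 0 in all libraries (Cela3b, Cpb1, Prss2, Pnlip, Amy2a5 and Try4), and only Cela1 had more than 5 reads in a library, so nearly all of the summed level was that of Cela1, at 20.8 and 23.7 CPM in WT and 29.8 and 31.0 CPM in KO.

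Some members share sequence or exons with other genes. The libraries do not mark strand, and how the counting treated strand is not named. Exons of Ppib overlap 825 bases of Snx22 on the opposite strand, which had 15 to 50 reads in a library against at least 2794 for Ppib. At 95% identity over at least 300 bases, Sec61b, Sec61g, Ero1lb, Derl1, Sec61a1 and Ppib had a near copy or overlapping transcript in GENCODE M21. The counts of Sec61b, Sec61g, Ero1lb and Derl1 may miss reads that matched more than 1 place. For Ppib and Sec61a1 the match was the overlapping transcript on the opposite strand, Snx22 and Gm44170, of which Gm44170 was not counted. Reads on exons shared by 2 counted genes may have been left out as ambiguous.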

How the data were processed

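The deposited files hold whole-number read counts per Ensembl gene, which the authors did not normalise. Per the submitters' processing notes, the tools were TopHat2 2.1.1 and HTSeq 0.6.0 with build mm10. Neither the annotation release nor the counting options is named there or in the labels. Per the labels' protocols, polyadenylated RNA was made into TruSeq v2 libraries, which do not mark strand. From the counts, KO was compared with WT over all 4 libraries with edgeR 4.0.16 (R 4.3.3): filterByExpr (minimum count 10, minimum total 15), TMM, robust quasi-likelihood F test, two-sided, genotype as the only term, Benjamini-Hochberg adjustment over all 13836 tested genes, called at 0.05. Standard errors (SE) were taken as the absolute log2 fold change over root F. At this depth 1 read is 0.0224 to 0.0253 CPM. Lengths are unions of GENCODE M21 exons. Promoters were matched through Entrez identifiers. In 3 simulated data sets of KO against WT with 13590 genes, 54.2% of 2-fold and 97.4% of 4-fold changes were recovered, with 5.19% false calls. The simulated libraries held no difference shared by replicate number, and the variation of a gene followed from its level alone. These rates may therefore not hold for the real libraries. The members, lists and tests were chosen with earlier results of these data known. Library values were given for called members, the 12 with the smallest p, the 3 highest per kilobase, Hspa5, Atf6, Sec61a1 and the sensors; other named members were chosen after their values were seen. Alternatives were DESeq2 1.42.0, its size factors, library size alone, no filter, limma-voom (limma 3.58.1), each library left out, an offset for transcript length (loess span 0.5) and a replicate block.
The replicate numbers are not stated to pair the libraries, so the block was kept as an alternative.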

Additional observations from a re-analysis of the deposited data

How the results depend on the processing

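With 2 libraries a genotype, small differences could not be separated from library variation. All role medians stayed positive in the 12 alternatives, and Creld2 stayed called in all 12. Over all genes, 264 were called in the analysis reported, against 829 with no filter on low counts, 559 with DESeq2, 427 with the length offset, 460 to 633 with a library left out, 282 with DESeq2's size factors, 258 with limma-voom and 176 with library size alone. Members called higher, 2 as reported, were 4 with no filter and 4 with DESeq2 (Xbp1 and Ern1 added, where 1.94% and 1.86% of all tested genes were called higher), 3 with the length offset (Xbp1 added, 1.56%), and 3 to 5 with a library left out. Those 5 were reached without WT replicate 1 (2.38%) or without KO replicate 2 (1.94%), with Hyou1, Sdf2l1 and Ern1 added, and the 3 without WT replicate 2 (1.76%) or KO replicate 1 (1.62%), with Xbp1 added. The cause was not tested.

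Leaving out a library gave median log2 fold changes of 0.19 to 0.45 for chaperones, 0.25 to 0.45 for isomerases and oxidases, 0.082 to 0.24 for the translocon, 0.0094 to 0.18 for ERAD and 0.57 to 0.67 for the sensors and Xbp1. The ERAD median was 6.3e-04 with the length offset. The log2 fold change changed sign in some of these fits, over the ranges -0.025 to 1.01 for Hyou1, -0.23 to 2.1 for Sdf2l1, -0.15 to 0.10 for P4hb (0.06 without KO replicate 1), -0.10 to 0.0038 for Txndc5, -0.14 to 0.24 for Sec61b (-0.02 without KO replicate 2), -0.014 to 0.43 for Sec61g, -0.13 to 0.19 for Ssr1 (-0.12 without WT replicate 2, -0.025 with the length offset), -0.028 to 0.21 for Ssr3, -0.14 to 0.073 for Derl1 (0.0094 without KO replicate 1), -0.24 to 0.12 for Derl2, -0.21 to 0.34 for Sel1l (-0.20 without WT replicate 2), -0.30 to 0.18 for Edem1 and -0.13 to 0.23 for Selenos (-0.12 without WT replicate 1). None of these members was called in the analysis reported.

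With the replicate block, 2729 of all tested genes were called, and 3129 with the length offset added. Members called higher were then 18 (10.1% of all tested genes) and 19 (11.2%), and 1 was called lower, Herpud1 (9.58% and 11.4%). Derl3 was not called in either (log2 fold change 2.96, adjusted p = 0.063, and 3.01, adjusted p = 0.199, edgeR). With the block and the length offset the chaperone median was 0.34, the ERAD median 0.0023 and Ssr1 -0.026. The check for pairing, the correlation of replicate 2 minus replicate 1 between the genotypes, gave r = 0.43 across 13836 genes, which are not independent, from 2 numbers only.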
